A study of Mus musculus with 32 samples.

Results

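The coats that form vesicles between the endoplasmic reticulum (ER) and the Golgi, with the receptors that load cargo into them, were followed in cultured mouse islets as 32 genes chosen by name. They comprise 9 subunits of the COPI coat, 9 subunits of the COPII coat, the 2 Sar1 GTPases, 5 p24 proteins, 4 cargo receptors and 3 KDEL receptors. The genes were picked out of a table of 36595 genes by a list of symbols that holds no measured value, though it was drawn up with earlier results of these data known, and all 32 passed the filter on low counts that left 16428 genes for testing. Islets came from male and female C57BL/6NHsd mice, 10 weeks old. Per the labels, human islet amyloid polypeptide replaced the mouse gene at its locus in hIAPP mice, by homologous recombination, and the mIAPP mice were their wild-type littermates. The number of replaced copies is not given in the sources used here. Isolated islets of both genotypes recovered overnight at 11.1 mM glucose and were then cultured for 48 h at 11.1 or 16.7 mM glucose, which gave 4 groups. Each of 8 sets of experiments held all 4 groups, so that there were 8 libraries per group and 32 in all. The number of animals behind a set is not stated, and p values therefore measure the spread between these sets. Human islet amyloid polypeptide forms amyloid and the mouse peptide does not, and the series is titled for the effect of amyloid formation on the islet transcriptome. Amyloid itself was not measured in the data used here.

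COPII-coated vesicles bud from the ER when the GTPase Sar1 recruits the Sec23 and Sec24 inner coat, in which Sec24 binds cargo, and then the Sec13 and Sec31 outer cage. COPI-coated vesicles carry material back from the Golgi to the ER and between Golgi cisternae. Beta cells make large amounts of proinsulin in the ER, and all of it leaves through this traffic. In islet RNA the share of each cell type is not known, so fewer cells of a type and less RNA per cell cannot be told apart.

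Values are estimated read counts, scaled by library size and edgeR's TMM factor and given as CPM, the counts a gene would have in a library of 1000000. In units of 1000000 counts, the libraries held 16.1 to 43.7. The islet label was borne out by the 10 beta cell markers, whose summed level was 146176 to 336483 CPM over all libraries and none of which was at 0 in a group, against 4.53 to 231 CPM for 10 acinar markers. The share of counts from mitochondrially encoded genes differed between the groups. At 16.7 mM it averaged 4.06 ± 1.63% in the hIAPP group and 11.3 ± 11.2% in the mIAPP group (SD over 8 libraries). At 11.1 mM the averages were 16.6 ± 7.83% for hIAPP and 18.2 ± 11.6% for mIAPP. The targeted mouse gene Iapp was lower in hIAPP islets but not near 0, at 5647 to 7912 CPM against 8645 to 15614 CPM in mIAPP islets at 11.1 mM, and at 9764 to 11583 against 16864 to 30408 CPM at 16.7 mM. The 2 genotypes did not overlap at either glucose level, and whether reads of the human transcript counted toward mouse Iapp was not tested. One library stood apart in its mitochondrial share, that of set 7 from mIAPP islets at 16.7 mM, with 37.0%. Cell type markers moved with glucose as well. Of the 10 beta cell markers, 8 were lower and 2 higher at 16.7 mM in hIAPP islets (median log2 fold change -0.55), and 4 were lower and 2 higher in mIAPP islets (-0.13). The 8 macrophage markers summed to a median of 325 CPM at the lower and 126 CPM at the higher glucose level in hIAPP islets, and to 261 and 136 CPM in mIAPP islets. All 7 endothelial markers were lower at 16.7 mM in hIAPP islets and 5 of 7 in mIAPP islets, with summed medians of 76.5 against 33.8 CPM and 81.1 against 55.8 CPM. The 6 ductal markers summed to medians of 337 against 903 CPM in hIAPP and 362 against 607 CPM in mIAPP islets. Of the 5 tested, only 2 rose and 1 fell in hIAPP and 1 rose in mIAPP islets, where their median log2 fold change was -0.25. Spp1 rose most of them, by 3.01 in hIAPP islets. Of 8 stellate cell and fibroblast markers, 7 were lower at 16.7 mM in hIAPP and 3 in mIAPP islets, with summed medians of 1081 against 633 CPM and 634 against 595 CPM. The 6 alpha cell markers summed to medians of 5482 against 8798 CPM in hIAPP and 5173 against 6387 CPM in mIAPP islets. Of these, 2 rose and 0 fell in hIAPP and 2 rose and 1 fell in mIAPP islets. For 5 delta and PP cell markers the medians were 4543 against 3142 CPM and 5113 against 3581 CPM, with 1 higher and 2 lower in hIAPP and 0 and 2 in mIAPP islets.

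The promoters of 6 genes are shown, because 5 of them are the members that carry the core of the unfolded protein response element, a site known to be bound by the ER stress factors XBP1 and ATF6, and the other, Sec23b, changed most with glucose and lacks it. They come from RefSeq on GRCm38.p6, in which 27 of the 32 genes matched, with 29 windows of 300 bases from 250 bases before to 50 after each transcript start. Each stretch is written 5′ to 3′ on the strand of the gene, from 120 bases before the RefSeq start to at most 30 bases inside the annotated transcript. Capitals mark the 8-base core TGACGTGG, searched on both strands, so that a match on the opposite strand appears as its reverse complement.
Copb1 (chr7:114254682-114254800, minus strand): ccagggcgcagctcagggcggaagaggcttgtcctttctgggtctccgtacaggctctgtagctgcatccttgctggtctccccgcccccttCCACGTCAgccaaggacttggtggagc
Copb2 (chr9:98563611-98563750, plus strand): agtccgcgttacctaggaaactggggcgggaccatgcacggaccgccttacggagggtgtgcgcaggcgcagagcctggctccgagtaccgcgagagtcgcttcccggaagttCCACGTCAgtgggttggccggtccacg
Sec23a (chr12:59011988-59012137, minus strand): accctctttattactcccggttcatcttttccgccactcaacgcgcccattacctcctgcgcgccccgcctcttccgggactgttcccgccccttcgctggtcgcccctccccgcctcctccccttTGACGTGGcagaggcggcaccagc
Sec23b (chr2:144556109-144556258, plus strand): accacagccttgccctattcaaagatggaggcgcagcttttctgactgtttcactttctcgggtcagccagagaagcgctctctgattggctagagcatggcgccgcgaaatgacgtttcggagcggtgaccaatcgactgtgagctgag
Sec24d (chr3:123267376-123267484, plus strand): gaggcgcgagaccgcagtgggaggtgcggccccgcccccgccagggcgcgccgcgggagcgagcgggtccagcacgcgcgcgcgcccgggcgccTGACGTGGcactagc
Kdelr3 (chr15:79516288-79516437, plus strand): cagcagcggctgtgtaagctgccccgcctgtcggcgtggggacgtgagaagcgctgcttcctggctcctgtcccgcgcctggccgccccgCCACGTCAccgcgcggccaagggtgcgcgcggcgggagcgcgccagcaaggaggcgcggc
Counted from the RefSeq start, the core began 28 bases before it in Copb1, 7 before it in Copb2, 26 before it in Sec24d and 30 before it in Kdelr3, and in Sec23a it began at base 7 of the transcript. GENCODE places the starts of Copb1, Copb2 and Sec24d farther upstream, so that in these 3 the core lies inside the GENCODE gene. It was in 5 of 29 windows of these genes (17.2%) and in 222 of all 32851 windows (0.676%). Neither window of Sec23b held it. The 2 longer ER stress elements searched, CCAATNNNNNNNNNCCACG (0.119% of all windows) and ATTGGNCCACG (0.0365%), were in 0 of the 29 windows. The 5-base CCACG, which is part of both of these and also lies within the core on its other strand, was in 72.4% of the 29 windows and in 32.8% of all. The cyclic AMP response element TGACGTCA (1.79% of all windows) was in Cope, and the E-box CACGTG (7.15%) in Sar1a, Tmed10 and Mcfd2. These matches describe letters and do not show binding. The core was 1 of 6 motifs searched. All windows were taken as the background, without matching to the members in expression or base content.

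Nearly every gene of the set was higher after 48 h at 16.7 mM glucose than at 11.1 mM, in both genotypes. In hIAPP islets 31 of 32 rose and 0 fell, where 32.2% of all tested genes rose and 33.3% fell (edgeR's quasi-likelihood test with the set as a block, Benjamini-Hochberg adjusted p under 0.05). In mIAPP islets 30 of 32 rose and 0 fell, where 24.9% of all genes rose and 22.7% fell. The median log2 fold change of the 32 genes was 0.76 in hIAPP and 0.76 in mIAPP islets, beside -0.02 and -0.03 over all genes. Together the 32 genes rose in hIAPP islets from 4578 ± 560 to 8692 ± 360 CPM (SD over 8 libraries), and in mIAPP islets from 4562 ± 806 to 7889 ± 909 CPM. For 26 of the 32 genes the 8 hIAPP libraries at 16.7 mM all lay above the 8 at 11.1 mM, which held for 14.3% of all genes, while 8.38% lay wholly below and no member did. In mIAPP islets this held for 7 of 32 (Sar1a, Tmed3, Tmed9, Tmed10, Mcfd2, Kdelr1 and Kdelr3), against 2.64% of all genes. In each genotype 28 of 32 genes were higher in 8 of 8 sets (23.2% of all genes in hIAPP and 15.6% in mIAPP islets).

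**Figure D1:**
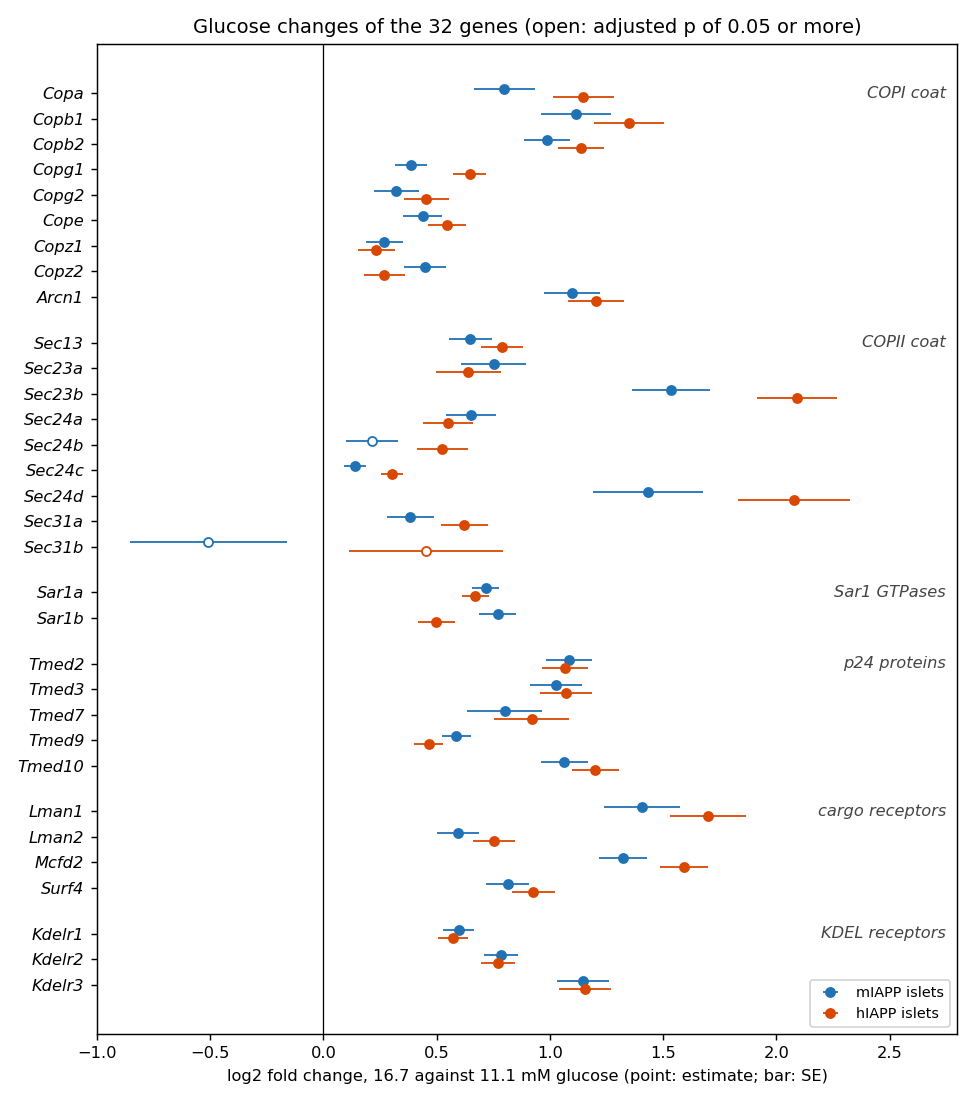
Log2 fold change of each of the 32 genes at 16.7 against 11.1 mM glucose, grouped by role, in mIAPP (blue) and hIAPP islets (orange), with the SE from the fit as bars and open symbols where the adjusted p was 0.05 or more. All points but that of Sec31b in mIAPP islets lie to the right of 0, and Sec23b, Sec24d, Lman1 and Mcfd2 lie farthest to the right.

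Among the COPI coat genes, all 9 rose in both genotypes, and they did so by unequal amounts. The alpha, beta, beta prime and delta subunits, encoded by Copa, Copb1, Copb2 and Arcn1, rose by 1.15, 1.35, 1.14 and 1.21 on the log2 scale in hIAPP islets and by 0.80, 1.12, 0.99 and 1.10 in mIAPP islets. The gamma subunits Copg1 and Copg2, epsilon (Cope) and zeta subunits Copz1 and Copz2 rose by 0.23 to 0.65 in hIAPP and 0.27 to 0.45 in mIAPP islets. Copb2 went from a lowest, median and highest value of 134, 176 and 250 CPM to 342, 394 and 424 CPM in hIAPP islets, with a log2 fold change of 1.14 ± 0.10 (± SE here and below, adjusted p = 6.77e-10). The mIAPP libraries went from 134, 155 and 262 CPM to 218, 324 and 441 CPM (0.99 ± 0.10, adjusted p = 1.9e-08). The hIAPP groups did not overlap, while in mIAPP islets the set 4 library at 11.1 mM lay above the set 7 library at 16.7 mM. Arcn1 had a median of 154 CPM before and 360 CPM after the rise in hIAPP islets (1.21 ± 0.12, adjusted p = 9.48e-09), and 145 and 329 CPM in mIAPP islets (1.10 ± 0.12, adjusted p = 1.04e-07). Copg1, the major gamma subunit with 94.2% of the family's level per kilobase in the hIAPP group at 16.7 mM, rose from a median of 278 to 449 CPM there (0.65 ± 0.07, adjusted p = 3.71e-08) and from 297 to 406 CPM in mIAPP islets (0.39 ± 0.07, adjusted p = 0.000111).

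In hIAPP islets the zeta subunits moved least of the COPI coat. In hIAPP islets Copz1 lay at 111, 136 and 184 CPM (lowest, median and highest) and then at 144, 156 and 169 CPM, so that the groups overlapped (0.23 ± 0.08, adjusted p = 0.013). In 3 of the 4 groups its highest library was that of set 7, which was the lowest library for 12 to 25 of the 32 genes depending on the group. Copz1 was called in mIAPP islets as well (0.27 ± 0.08, adjusted p = 0.00767), and Copz2 changed by 0.27 ± 0.09 in hIAPP and 0.45 ± 0.09 in mIAPP islets (adjusted p = 0.0125 and 0.000305). In hIAPP islets both calls were lost without set 3, without the replicate block and in a fit limited to genes of at least 5 CPM, and that of Copz1 also without set 4. In mIAPP islets the calls of Copz1 and Copg2 were lost without the replicate block, and that of Copz1 also in the fit limited to genes of at least 5 CPM.

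The COPII coat held the largest change in each genotype, that of Sec23b. Sec23b, the Sec23 paralog whose human counterpart is mutated in congenital dyserythropoietic anaemia type II, lies on chromosome 2 from 144556229 to 144590749 on the plus strand. In hIAPP islets its values of 30.9, 54.6 and 110 CPM became 205, 252 and 280 CPM, with no overlap, a log2 rise of 2.09 ± 0.18 or 4.26-fold (adjusted p = 3.04e-10). The mIAPP libraries stood at 31.1, 57.9 and 115 CPM and at 79.4, 171 and 273 CPM (1.53 ± 0.17 or 2.90-fold, adjusted p = 1.12e-07). Its lowest mIAPP library at 16.7 mM, that of set 7, fell within the range of the 11.1 mM libraries. Sec24d, a cargo-binding Sec24 paralog on chromosome 3 from 123267455 to 123365641 on the plus strand, stood at 22.8, 42.2 and 95.7 CPM and then at 151, 197 and 223 CPM in hIAPP islets (2.08 ± 0.25 or 4.22-fold, adjusted p = 1.42e-07). Its mIAPP values went from 13.3, 50.0 and 107 CPM to 35.6, 136 and 210 CPM (1.44 ± 0.24 or 2.70-fold, adjusted p = 4.23e-05).

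Their paralogs changed less. Sec23a rose from a median of 15.9 to 27.9 CPM in hIAPP islets (0.64 ± 0.14, adjusted p = 0.000417) and from 15.4 to 27.2 CPM in mIAPP islets (0.75 ± 0.15, adjusted p = 0.000164). Sec24c, at a median of 153 CPM the Sec24 gene with the highest level per kilobase in hIAPP islets at 11.1 mM, rose to 189 CPM (0.30 ± 0.05, adjusted p = 8.14e-06), with no overlap of the groups. The mIAPP medians were 161 and 177 CPM (0.14 ± 0.05, adjusted p = 0.0205). That call was lost without set 1, 4, 6, 7 or 8, with mitochondrial genes left out, and in the fit limited to genes of at least 5 CPM. Sec24a rose by 0.55 ± 0.11 and 0.65 ± 0.11, and Sec24b by 0.53 ± 0.11 in hIAPP islets, while the mIAPP medians of Sec24b were 30.9 and 37.3 CPM (0.22 ± 0.11, adjusted p = 0.122). Without the set 7 mIAPP library at 16.7 mM Sec24b was called in mIAPP islets too. Of the outer cage, Sec13, which is also a nuclear pore protein, rose from a median of 66.4 to 118 CPM in hIAPP islets (0.79 ± 0.09) and from 71.1 to 116 CPM in mIAPP islets (0.65 ± 0.09). Sec31a rose by 0.62 ± 0.10 and 0.38 ± 0.10. Sec31b, the minor Sec31 paralog, had 0.131 to 2.85 CPM over all libraries and no call in either genotype (0.45 ± 0.34 and -0.51 ± 0.35), and its reads are uncertain because it overlaps a predicted gene on the same strand.

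**Figure D2:**
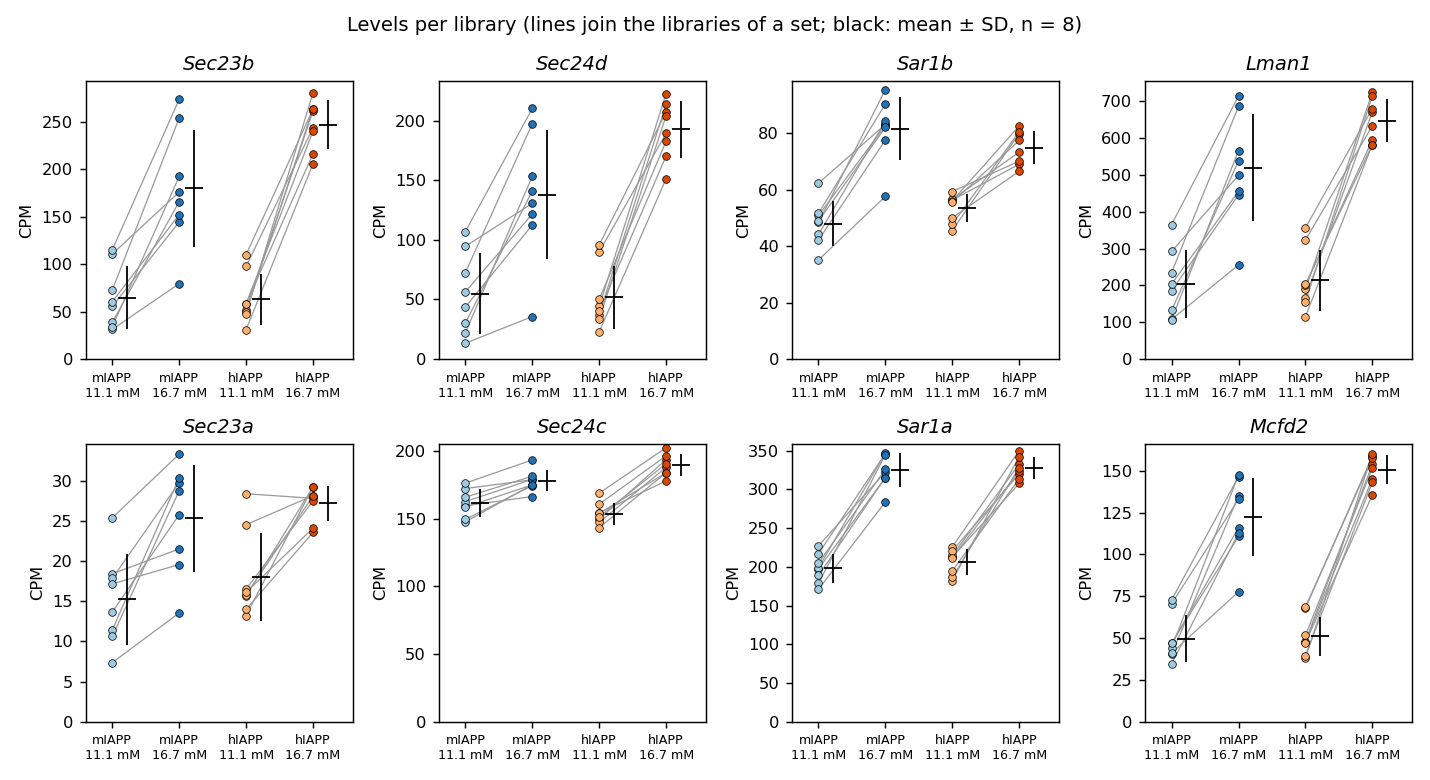
Level in CPM of 8 genes in each library of the 4 groups, with thin lines joining the libraries of a set and black marks for the mean ± SD (n = 8). Sec23b, Sec24d, Lman1 and Mcfd2 rise steeply in both genotypes, whereas Sec24c stays between 143 and 203 CPM in all 32 libraries.

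The Sar1 GTPases, which start COPII assembly at the ER membrane, rose together in both genotypes. In hIAPP islets Sar1a moved from 182, 212 and 226 CPM to 307, 326 and 350 CPM, a log2 rise of 0.67 ± 0.06 (adjusted p = 6.18e-10). In mIAPP islets the values were 171, 198 and 227 CPM and 284, 324 and 347 CPM (0.72 ± 0.06, adjusted p = 5.65e-10), and the groups did not overlap in either genotype. Sar1b, the paralog whose human counterpart is mutated in chylomicron retention disease, rose from a median of 55.9 to 75.5 CPM in hIAPP islets (0.50 ± 0.08, adjusted p = 1.04e-05) and from 48.7 to 83.0 CPM in mIAPP islets (0.77 ± 0.08, adjusted p = 3.91e-08). Sar1b and Sec24a lie head to head on chromosome 11, with 52 bases between their annotated starts.

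All 5 p24 proteins, small membrane proteins that cycle between ER and Golgi and bind both coats, rose in both genotypes. In hIAPP islets Tmed10 moved from 186, 250 and 306 CPM to 521, 565 and 654 CPM (1.20 ± 0.10, adjusted p = 4.54e-10). Among mIAPP libraries it stood at 157, 232 and 307 CPM and at 317, 467 and 581 CPM (1.06 ± 0.10, adjusted p = 9.51e-09), again without overlap. Tmed2 rose by 1.07 ± 0.10 in hIAPP and 1.09 ± 0.10 in mIAPP islets, and Tmed3 by 1.07 ± 0.12 and 1.03 ± 0.12. Tmed9 rose least, by 0.47 ± 0.06 and 0.59 ± 0.06, and its groups did not overlap in either genotype. Tmed7 rose by 0.92 ± 0.17 and 0.80 ± 0.17, with reads that are uncertain because Ticam2 overlaps it on the same strand. Per kilobase of transcript, Tmed10 and Tmed3 had the highest mean levels of the 32 genes in all 4 groups. The hIAPP values were 238 ± 35.7 and 224 ± 43.9 CPM per kilobase at 11.1 mM and 546 ± 41.8 and 464 ± 57.5 at 16.7 mM.

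All 4 cargo receptors rose in both genotypes. Lman1 (ERGIC-53) and Mcfd2 form one receptor complex, known for the export of coagulation factors V and VIII. In hIAPP islets Lman1 moved from 115, 195 and 356 CPM to 582, 652 and 724 CPM (1.70 ± 0.17 or 3.24-fold, adjusted p = 5.22e-09). The mIAPP libraries had 107, 195 and 365 CPM and then 255, 518 and 714 CPM (1.41 ± 0.17 or 2.65-fold, adjusted p = 2.51e-07), and set 7 at 16.7 mM lay within the range at 11.1 mM. Mcfd2 stood at 38.0, 47.9 and 68.6 CPM and then at 135, 153 and 160 CPM in hIAPP islets (1.59 ± 0.11 or 3.01-fold, adjusted p = 4.59e-12). Its mIAPP values rose from 34.6, 45.5 and 72.8 CPM to 77.7, 125 and 148 CPM (1.32 ± 0.11 or 2.50-fold, adjusted p = 3.07e-10), with no overlap in either genotype. Surf4, a receptor for soluble secreted proteins, rose from a median of 357 to 674 CPM in hIAPP islets and from 324 to 646 CPM in mIAPP islets (0.93 ± 0.10 and 0.81 ± 0.10). Lman2 (VIP36) rose by 0.75 ± 0.09 and 0.59 ± 0.09.

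KDEL receptors return escaped ER chaperones from the Golgi in COPI vesicles. All 3 rose in both genotypes, with interaction estimates of -0.03 to 0.01 (SE 0.10 to 0.16). Kdelr1 rose by 0.57 ± 0.07 in hIAPP and 0.60 ± 0.07 in mIAPP islets, and Kdelr2 by 0.77 ± 0.08 and 0.78 ± 0.08. Kdelr3, the least abundant, rose from 6.59, 8.51 and 15.3 CPM to 16.8, 20.6 and 22.9 CPM in hIAPP islets (1.15 ± 0.12 or 2.23-fold, adjusted p = 5.61e-09). The mIAPP libraries went from 6.77, 8.93 and 11.5 CPM to 18.2, 19.9 and 23.6 CPM (1.15 ± 0.12 or 2.22-fold, adjusted p = 1.66e-08), with no overlap in either genotype.

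The mitochondrial share moved with these levels between and within groups. At 11.1 mM sets 3 and 4 had the lowest shares in both genotypes (5.23 and 6.49% in hIAPP, 3.49 and 5.25% in mIAPP islets), and they were among the highest 2 libraries for 24 and 22 of the 32 genes in hIAPP and for 23 and 18 in mIAPP islets. Set 7 had the highest share in both 11.1 mM groups (27.2 and 34.7%) and was the lowest library for 14 and 20 genes. With the log2 mitochondrial share as a covariate beside the set, 25 of 32 genes rose in hIAPP and 27 in mIAPP islets, with medians of 0.47 and 0.60. Of all genes tested, 10% rose in hIAPP and 18.3% in mIAPP islets with this covariate. Copg2, Sec23a, Sec24a, Sec24b, Sec31a and Tmed7 were no longer called in hIAPP islets, and Copg2, Sec24c and Sec31a in mIAPP islets. Sec23b then changed by 1.17 ± 0.19 in hIAPP and 1.17 ± 0.13 in mIAPP islets, and Sec24d by 0.80 ± 0.26 and 0.93 ± 0.18. For Kdelr3 the estimates were 1.04 ± 0.19 and 1.10 ± 0.13, and for Sar1a 0.65 ± 0.10 and 0.71 ± 0.07. The 18 libraries under 10% mitochondrial counts held 2 hIAPP libraries (sets 3 and 4) and 3 mIAPP libraries at 11.1 mM, and 8 and 5 at 16.7 mM. With these 18 libraries alone, 24 genes rose in hIAPP and 25 in mIAPP islets, beside 11.9% and 15.9% of all genes. The calls lost there were the same 6 and that of Sec24c in hIAPP islets, and those of Copg1, Copg2, Cope, Sec24c and Sec31a in mIAPP islets, where Sec31b was called lower.

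Sets 3 and 4, singled out after the values were seen, had under 10% mitochondrial counts in all 4 of their libraries. Within both of these sets 29 of 32 genes were higher at 16.7 than at 11.1 mM in hIAPP islets and 29 in mIAPP islets. The exceptions were Sec23a, Sec24b and Sec31b in hIAPP and Sec24b, Sec31a and Sec31b in mIAPP islets. The like count over all genes was not made. The median difference of the 32 genes was 0.67 and 0.56 on the log2 scale in sets 3 and 4 in hIAPP islets and 0.50 and 0.56 in mIAPP islets. Sec23b differed by 1.32 and 1.26 in hIAPP and by 0.67 and 1.25 in mIAPP islets. The parts of the cell type markers, endocrine or other, in these results were not tested.

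**Figure D3:**
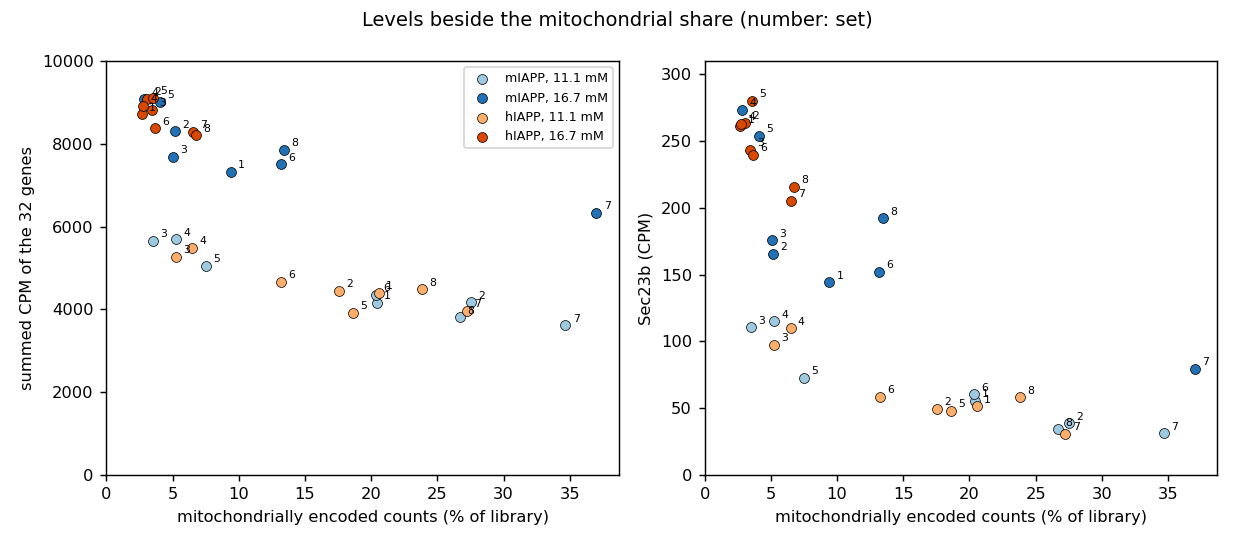
Summed CPM of the 32 genes (left) and CPM of Sec23b (right) in each library against the share of mitochondrially encoded counts in percent, with colours for the groups and numbers for the sets. Libraries at 16.7 mM lie above those at 11.1 mM at like shares below 10%, and the mIAPP library of set 7, at 37.0%, is the lowest of the 16.7 mM libraries in both panels.

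Between the genotypes at 16.7 mM, the comparison nearest to the title's question, 5 of 32 genes were higher in hIAPP islets and 0 were lower, where 9.27% of all genes were higher and 11.2% lower. The 5 were Copa and Copb1 of COPI, Sec23b and Sec24b of COPII, and the cargo receptor subunit Mcfd2. The median log2 difference of the 32 genes was 0.15, beside -0.01 over all genes, and the 2 groups overlapped for all 32, where 2.39% of all genes lay wholly higher and 0.584% wholly lower. In 8 of 8 sets 4 of the 32 were higher, beside 10.1% of all genes. At an unadjusted p under 0.05 stood 13 of the 32, beside 36.2% of all genes. This comparison shares its libraries with the glucose comparisons above. Sec23b had 79.4, 171 and 273 CPM in mIAPP and 205, 252 and 280 CPM in hIAPP islets, a difference of 0.55 ± 0.17 (adjusted p = 0.0236, higher in 7 of 8 sets). Mcfd2 had 77.7, 125 and 148 CPM in mIAPP and 135, 153 and 160 CPM in hIAPP islets (0.32 ± 0.10, adjusted p = 0.0302, 8 of 8 sets). Sec24b had 17.6, 37.3 and 43.6 CPM in mIAPP and 39.0, 44.3 and 49.9 CPM in hIAPP islets (0.35 ± 0.11, adjusted p = 0.0312, 7 of 8 sets). For each of these genes the hIAPP libraries spanned the narrower range, and the lowest mIAPP library was that of set 7.

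Copa, on chromosome 1 from 172082529 to 172122330 on the plus strand, had 239, 460 and 670 CPM in mIAPP and 513, 601 and 657 CPM in hIAPP islets (0.38 ± 0.13, adjusted p = 0.041, 7 of 8 sets). Copb1, on chromosome 7 from 114215559 to 114254711 on the minus strand, had 77.5, 191 and 269 CPM in mIAPP and 205, 250 and 272 CPM in hIAPP islets (0.44 ± 0.15, adjusted p = 0.0415, 7 of 8 sets). Sec24d had the largest estimate, 0.64 ± 0.24, and missed the threshold (adjusted p = 0.0578). Lman1 and Tmed7 had estimates of 0.38 ± 0.16 and 0.38 ± 0.16 (adjusted p = 0.094 and 0.0995). The 3 KDEL receptors, with estimates of -0.05 to 0.04, and the 2 Sar1 genes, with -0.11 and 0.01, had no call.

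These 5 calls depended on which libraries entered the fit. None of the 5 was called without the mIAPP set 7 library at 16.7 mM, for which the estimates were 0.26 to 0.49 and the adjusted p values 0.0683 to 0.124. The count was also 0 without set 1, without set 6, without set 7, without the replicate block and with the 18 libraries under 10% mitochondrial counts, was 2 without set 2 and rose to 9 without set 5. At 16.7 mM those 18 libraries held 8 from hIAPP and 5 from mIAPP islets. With the mitochondrial share as a covariate the 5 estimates lay between -0.03 and 0.05 and Copa changed sign, with 0 calls. In set 4, where the hIAPP and mIAPP libraries at 16.7 mM had shares of 2.77 and 2.84%, the median difference of the 32 genes was -0.02, and in set 3, with 3.44 and 5.06%, it was 0.18. Cell type markers differed between these groups as well: 7 of 10 beta cell markers, 5 of 7 endothelial markers and both lymphocyte markers tested were lower in hIAPP islets, with median log2 differences of -0.42, -0.98 and -1.37. The lower beta cell markers included Iapp, the targeted gene itself (-1.14), while Ins1 and Ins2 had estimates of -0.36 and -0.27 and no call. The part of the cell type markers in the 5 calls was not tested.

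**Figure D4:**
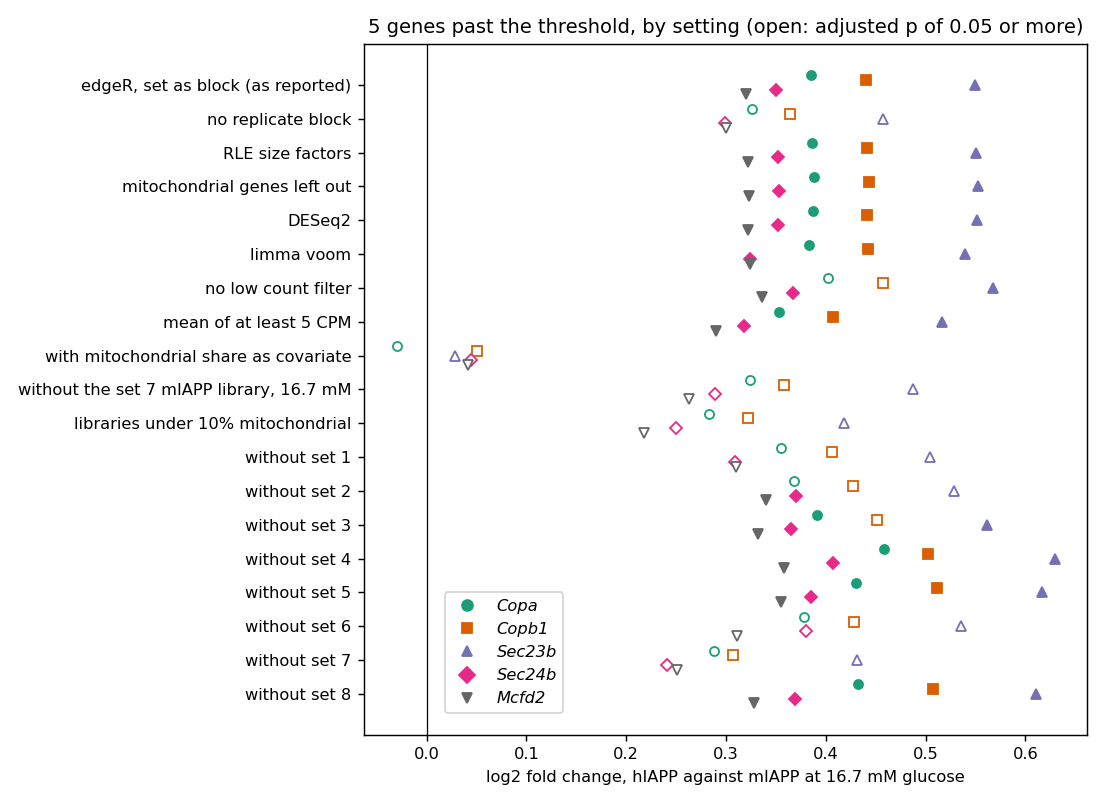
Log2 difference of hIAPP against mIAPP islets at 16.7 mM glucose for the 5 genes past the threshold, under each setting of the fit, with filled symbols where the adjusted p was under 0.05. All estimates but that of Copa with the mitochondrial covariate lie above 0, and the symbols turn open in 7 of the settings for all 5 genes.

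At 11.1 mM no gene of the set differed between the genotypes, where 0.11% of all genes were higher and 0.0183% lower. No member's libraries lay wholly apart (0.0791% of all genes higher and 0.0122% lower). The count was also 0 at an unadjusted p under 0.05, DESeq2 gave 0 (1 unadjusted), and the median log2 difference was 0.04. Sec23b had a median of 57.9 CPM in mIAPP and 54.6 CPM in hIAPP islets (-0.01 ± 0.17), and Sec24d 50.0 and 42.2 CPM (0.00 ± 0.24). The glucose effect itself was compared between genotypes by the interaction, in which 2.17% of all genes were higher and 0.95% lower. No gene of the 32 passed with edgeR, 4 had an unadjusted p under 0.05 (Copg1, Sec23b, Sec24c and Sar1b) beside 18.6% of all genes, and DESeq2 called Copg1 (0.27, adjusted p = 0.0498) and Sec24c (0.17, adjusted p = 0.0171). The estimate for Sec23b was 0.56 ± 0.24 (adjusted p = 0.211, larger in hIAPP islets in 7 of 8 sets), and for Sec24d 0.64 ± 0.34 (adjusted p = 0.311).

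The mix of paralogs within a library changed with glucose. Since a ratio of 2 genes in the same library does not depend on the scaling, 8 paralog pairs were compared within sets by exact two-sided sign-flip permutation tests, adjusted over 40 tests, with 0.00781 as the smallest p that 8 sets allow. kallisto assigns reads shared by paralogs by estimation, so a part of each ratio rests on that split. The log2 ratio of Sec23b to Sec23a was 1.12, 1.79 and 2.14 (lowest, median and highest) in the hIAPP group at 11.1 mM and 3.07, 3.14 and 3.33 at 16.7 mM, a rise of 1.44 ± 0.32 (SD over 8 sets, adjusted p = 0.0391, 8 of 8 sets). The mIAPP ratios were 1.47, 1.90 and 2.62 and then 2.51, 2.72 and 3.04, a rise of 0.79 ± 0.45 (adjusted p = 0.0446, 7 of 8 sets). The rise was larger in hIAPP islets in 8 of 8 sets, by 0.65 ± 0.65 (adjusted p = 0.0391). At 16.7 mM all 8 hIAPP libraries lay above all 8 mIAPP libraries, with a within-set difference of 0.39 ± 0.17 (adjusted p = 0.0391), and at 11.1 mM the difference was -0.26 ± 0.58 (adjusted p = 0.323). In sets 3 and 4, with low mitochondrial shares throughout, the ratio rose with glucose by 1.35 and 1.06 in hIAPP islets. In mIAPP islets it changed by -0.06 and 0.86 in these sets. The ratio at 16.7 mM was higher in hIAPP islets there by 0.56 and 0.18. The part of the mitochondrial share in this ratio was not tested further.

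Per kilobase, Sec23b made up 79.8 ± 3.57% of the Sec23 level before and 91.5 ± 0.417% after the rise in hIAPP islets, and 82.5 ± 4.31% and 89.2 ± 1.34% in mIAPP islets. Among the 4 Sec24 genes, Sec24d took 30.7 ± 8.87% at 11.1 mM and 57.6 ± 2.86% at 16.7 mM in hIAPP islets while Sec24c went from 48.1 ± 7.64% to 27.8 ± 2.24%. In mIAPP islets Sec24d went from 30.7 ± 12.8% to 49.3 ± 11.2% and Sec24c from 50.2 ± 11.6% to 34.2 ± 9.80%. These shares depend on the lengths used, 2.105 kb for Sec24d and 4.329 kb for Sec24c, each a median of 2 annotated transcripts. In CPM, without the lengths, the means of Sec24d and Sec24c at 16.7 mM were 193 and 190 in hIAPP islets and 138 and 178 in mIAPP islets. The log2 ratio of Sec24d to Sec24c rose by 1.72 ± 0.59 in hIAPP and by 1.32 ± 0.73 in mIAPP islets, in 8 of 8 sets each (adjusted p = 0.0391), and at 16.7 mM it was higher in hIAPP islets by 0.53 ± 0.66 (adjusted p = 0.0446, 7 of 8 sets). Without set 7 that difference was 0.32, and without pairing by set it missed the threshold (adjusted p = 0.0682). In sets 3 and 4 the ratio rose by 0.81 and 0.91 in hIAPP and by 0.41 and 0.83 in mIAPP islets, and at 16.7 mM it differed between the genotypes by 0.36 and -0.01. The ratio of Sec24a to Sec24b at 16.7 mM was lower in hIAPP islets in 8 of 8 sets (-0.25 ± 0.22, adjusted p = 0.0391).

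The Sar1 pair shifted in hIAPP islets. There the log2 ratio of Sar1b to Sar1a was -1.94 ± 0.04 at 11.1 mM and -2.12 ± 0.07 at 16.7 mM, with no overlap and a fall in 8 of 8 sets (-0.18 ± 0.10, adjusted p = 0.0391). The mIAPP ratios were -2.04 ± 0.12 and -1.99 ± 0.13, a difference of 0.05 ± 0.09 (adjusted p = 0.255). The 2 glucose effects differed by -0.23 ± 0.13, in 8 of 8 sets (adjusted p = 0.0391). In sets 3 and 4 this ratio changed by -0.08 and -0.29 in hIAPP and by 0.17 and -0.09 in mIAPP islets. Of the KDEL receptors, Kdelr3 rose against Kdelr1 by 0.55 ± 0.32 in hIAPP and 0.52 ± 0.33 in mIAPP islets (adjusted p = 0.0446 for each, 7 of 8 sets), and made up 4.75 ± 0.369% of the KDEL receptor level per kilobase in the hIAPP group at 16.7 mM. Kdelr2 rose against Kdelr1 in mIAPP islets (0.18 ± 0.15, adjusted p = 0.0446), with a like estimate in hIAPP islets (0.19 ± 0.14, adjusted p = 0.0551). Without the pairing by set the adjusted p was 0.109 in mIAPP and 0.0179 in hIAPP islets, so that the call passed from one genotype to the other. Copz1 fell against Copz2 in mIAPP islets by 0.18 ± 0.09 (adjusted p = 0.0446). The ratio of Copg1 to Copg2 had no call in any comparison.

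**Figure D5:**
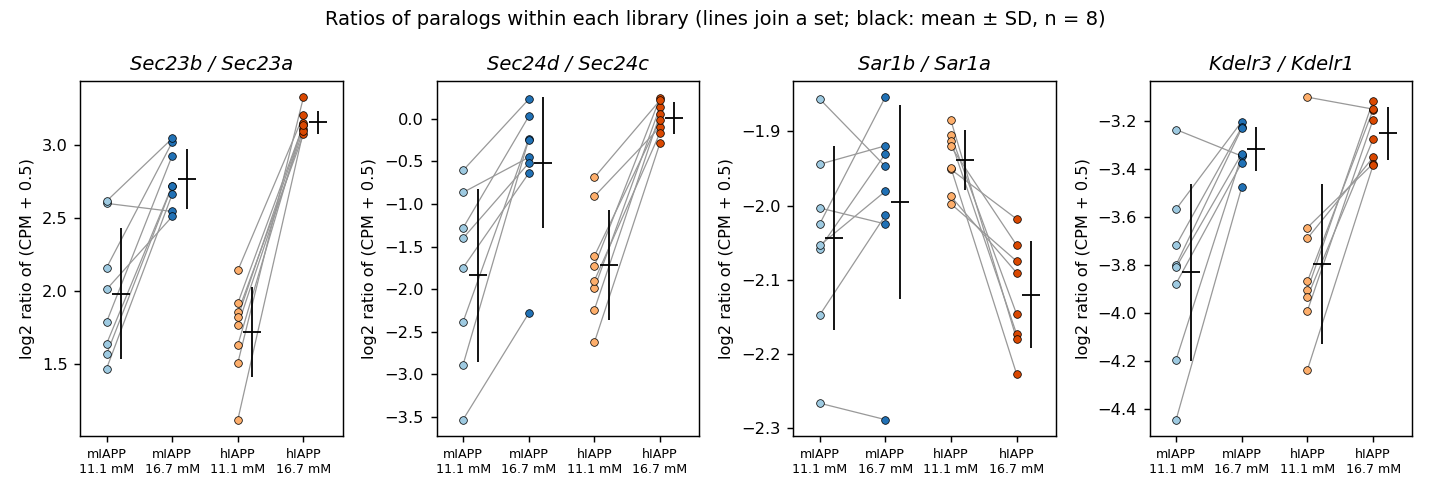
Log2 ratio of (CPM + 0.5) of 4 paralog pairs in each library of the 4 groups, with thin lines joining the libraries of a set and black marks for the mean ± SD (n = 8). Sec23b against Sec23a is above 3.07 in all hIAPP libraries at 16.7 mM and below 3.05 in all mIAPP libraries there, and Sar1b against Sar1a goes from a mean of -1.94 to -2.12 with glucose in hIAPP islets.

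The genes that act with these coats were taken from 6 lists, of which 77 of 80 genes were tested. In hIAPP islets 57 rose and 8 fell with glucose (median 0.61), and in mIAPP islets 54 rose and 6 fell (median 0.44), where over all genes 32.2% rose and 33.3% fell in hIAPP and 24.9% rose and 22.7% fell in mIAPP islets. All 8 organisers of ER exit sites rose in hIAPP and 7 of 8 in mIAPP islets, among them the scaffold Sec16a (0.88 and 0.65), Tfg (0.87 and 0.65) and the large-cargo receptor Mia3 (0.94 and 0.67). Of 12 other p24 and cargo receptors, 8 rose and 2 fell in hIAPP and 7 rose and 2 fell in mIAPP islets, with the ERGIC protein Ergic1 at 1.59 and 0.96 and the p24 protein Tmed6 at 2.34 and 1.57. In the Arf cycle of COPI, Arf4 changed by 1.29 and 1.21 and the GTPase-activating protein Arfgap3 by 1.19 and 0.93, whereas 1 of 9 genes fell in hIAPP islets. Of 25 tethers and SNAREs, 20 rose and 3 fell in hIAPP and 20 rose and 2 fell in mIAPP islets, with the SNARE Bet1 at 1.53 and 1.65 and the tether subunit Rint1 at 0.93 and 0.78. Of 14 TRAPP subunits 9 rose and 2 fell in each genotype.

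Among 9 transcription factors and proteases known to act on secretory genes, 6 rose and 0 fell in each genotype, with Atf6 at 1.15 and 0.95, Creb3l2 at 1.13 and 0.75 and Creb3 at 0.74 and 0.34. Between genotypes at 16.7 mM 10 of the 77 genes were higher and 4 lower, beside 9.27% and 11.2% of all genes. At 16.7 mM Ergic1 was higher in hIAPP islets by 0.61 (adjusted p = 3.77e-05) and Tmed6 by 0.87 (adjusted p = 0.00966), while the p24 protein Tmed1 was lower (-0.42, adjusted p = 0.0219). At 11.1 mM the median log2 difference of the 77 was -0.02, and 0 were called. In the interaction 2 of the 77 passed, where 2.17% of all genes were higher: Ergic1 (0.63, adjusted p = 0.00526) and Creb3 (0.40, adjusted p = 0.00915). The calls of the 77 genes were not followed under the other settings of the fit. Over all genes, 3371 calls between genotypes at 16.7 mM became 752 with the mitochondrial share as a covariate and 1133 under 10% mitochondrial counts. The 513 interaction calls over all genes became 260 and 7 in the same 2 settings.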

How the data were processed

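Poly(A) RNA of 32 libraries was sequenced from directional libraries, per the labels' protocols. The submitters' processing notes name bcl2fastq 1.8.4, kallisto 0.45.0 and the build GRCm38. The deposited values are expected counts per Ensembl gene, given as whole numbers; how transcripts were summed and whether strand was used in counting are not given in the sources used here. Each column matched the label of 1 sample, and no 2 libraries held identical values. The members and gene lists were chosen with earlier results of these data known.

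Counts were TMM scaled and fitted in edgeR 4.0.16 (R 4.3.3) by glmQLFit and glmQLFTest over 16428 genes left by filterByExpr, with 4 groups and the set as a block (21 residual degrees of freedom), and p values were adjusted by Benjamini-Hochberg over all genes tested. DESeq2 1.42.0 and limma 3.58.1 were alternatives. The fit was tested on simulated data. The labels make the replicate number the set of experiments; same-set libraries deviated together with a mean r of 0.168 to 0.362 across genes (lowest -0.23), against -0.05 to -0.024 for other sets. Within-set differences and paralog ratios used a pseudocount of 0.5 CPM. Levels per kilobase used the median length of coding transcripts in GENCODE M21. For 2 symbols of other genes with 2 identifiers, 1 was used. In each comparison, at most 4 genes of a role group or list, by smallest p, carry full statistics, and members may all be named.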

Additional observations from a re-analysis of the deposited data

Results flagged for a closer look

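Of 136 groups of 8 values checked (the 32 genes, their sum and the mitochondrial share in each group), 18 had 1 library far from the other 7, and 17 of these were the library of set 7. Chance flags about 1 in 20 such groups. The 32 genes share the same 8 libraries in each group, so 1 odd library can flag many genes, and the flags are not separate trials. In mIAPP islets at 16.7 mM the set 7 library had a mitochondrial share of 37.0% (next 13.4%). There it lay low for Copg2 (21.4 CPM, next 35.9), Arcn1 (159, next 287), Sec13 (68.0, next 99.7), Sec24b (17.6, next 32.5), Sec31a (188, next 290), Sar1b (57.7, next 77.7), Tmed2 (322, next 443), Tmed7 (40.8) and Kdelr2 (179, next 248). In the same library Copz1 (262 CPM, next 173), Copz2 (113, next 77.3) and Tmed3 (1103, next 734) lay high. At 11.1 mM the set 7 library lay high for Copz1 in mIAPP (203, next 150) and hIAPP islets (184, next 140), for Copz2 in mIAPP islets (78.0, next 54.3) and for Kdelr3 in hIAPP islets (15.3, next 10.5). The other one was set 4 for Copb2 in mIAPP islets at 11.1 mM (262 CPM, next 185).

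The glucose effect differed between genotypes for 2 paralog ratios, by 0.65 for Sec23b against Sec23a and by -0.23 for Sar1b against Sar1a (log2, exact sign-flip permutation test, adjusted p = 0.0391 for each). For single genes, edgeR called 0 of the 32 in the interaction. The mitochondrial share fell further with glucose in hIAPP than in mIAPP islets, and its part in these ratios was not tested.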

How the results depend on the processing

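Of the members called, the count for hIAPP against mIAPP islets at 16.7 mM (5) became 0 without the replicate block, 0 with the mitochondrial share as a covariate (where Copa reversed to -0.0297), 0 without the mIAPP set 7 library at 16.7 mM, 0 with libraries under 10% mitochondrial counts, 3 with no low count filter and 9 with DESeq2; limma voom gave 7. Leaving out 1 set gave 0 to 9. The interaction count (0) became 2 with DESeq2 and 0 in all other settings, replicate block or not. Glucose counts stayed at 24 to 31 in hIAPP and 26 to 31 in mIAPP islets (Sec31b called lower under 10% mitochondrial counts and without set 8), at 29 and 28 without the replicate block. For paralog ratios, counts without the pairing by set were 2, 0, 5 and 5 beside 3, 0, 4 and 5, with Sec24d against Sec24c lost at 16.7 mM, Kdelr2 against Kdelr1 gained in hIAPP and lost in mIAPP islets, and Sec24a against Sec24b gained in mIAPP islets. Leaving out 1 set gave 0 in every comparison, because 7 sets allow no p below 0.0156, so these say nothing about stability. Over all genes, calls at 16.7 mM between genotypes were 3371, and 1301 without the replicate block, 752 with the covariate, 1133 under 10% mitochondrial counts and 2108 without the set 7 library. Sec31b, at under 3 CPM, is limited by its counts.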
